A study of Mus musculus with 12 samples.

Results

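The miR-181 family was followed in the exosomes, small vesicles released into the medium, of mouse ovarian granulosa cells. Its members were taken by name as the entries mmu-miR-181a-5p, mmu-miR-181b-5p, mmu-miR-181c-5p and mmu-miR-181d-5p (written below without the species prefix) of the mouse miRNA count tables, and all 4 of these were among the 637 entries that the tables list. The granulosa cells came from the ovaries of female Kunming mice that had been given pregnant horse serum gonadotropin. They were acclimated for 24 h in medium free of exosomes and then cultured for 48 h in 4 groups of 3 libraries each. The control group (CON) had no additive, the iron overload group (FAC) had 100 µM ferric citrate, the iron chelator group (DFO) had 100 µM ferric citrate with 100 µM deferoxamine mesylate, and the vitamin E group (VE) had 100 µM ferric citrate with 200 µM VITE, a lipid-soluble antioxidant. Thus FAC, DFO and VE all contained ferric citrate, and no group with the chelator or the antioxidant alone was analysed here. The labels do not say whether the 3 libraries of a group came from separate cultures, so p-values measure the spread between libraries, which may be technical. In edgeR's test this spread was pooled over entries, so it is not the scatter of a single member alone.

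A miRNA is cut from a hairpin precursor whose 2 arms can each give a mature strand, named 5p and 3p. The strand that enters an Argonaute protein, called the guide, pairs through its seed, bases 2 to 8, with messenger RNAs and lowers their translation or stability. In the miR-181 family the 5p arm is the usual guide. The family is best known from thymocytes, where miR-181a tunes the response of the T cell receptor, and it is also made in many other tissues. All 4 names matched RefSeq (GRCm38.p6), and the seed was carried by exactly these 4 mature miRNAs in that table. The mature sequences are shown 5′ to 3′ with the seed in capitals, because the members can be told apart only by what follows it.

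miR-181a-5p: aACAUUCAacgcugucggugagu

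miR-181b-5p: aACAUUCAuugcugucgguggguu

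miR-181c-5p: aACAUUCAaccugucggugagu

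miR-181d-5p: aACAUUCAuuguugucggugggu

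Counted from 1 at the 5′ end, miR-181a-5p differed from miR-181b-5p by A9U, C10U and A21G and by 1 further base at the 3′ end of miR-181b-5p. From miR-181d-5p it differed by A9U, C10U, C12U and A21G. miR-181c-5p differed from miR-181a-5p by the deletion G11del alone, and miR-181d-5p differed from miR-181b-5p by C12U and the deletion U24del at its end. The sequences therefore form 2 close pairs, a with c and b with d, each with 22 identical bases. How reads that match several miRNAs were counted is not given in the sources used here, so the split of reads within a pair is uncertain.

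The 4 guides come from 6 hairpins in 3 clusters of GRCm38.p6. Mir181a-1 (chr1:137966455-137966541, plus strand) and Mir181b-1 (chr1:137966639-137966718, plus strand) lie 97 bases apart in an exon of the long noncoding RNA A430106G13Rik. Mir181a-2 (chr2:38852735-38852810, plus strand) and Mir181b-2 (chr2:38853830-38853918, plus strand) lie 1019 bases apart in an intron of Nr6a1, an orphan nuclear receptor gene on the opposite strand. Mir181d (chr8:84178716-84178787, minus strand) and Mir181c (chr8:84178873-84178961, minus strand) lie 85 bases apart in an intron of Nanos3, a germ cell gene on the same strand. The mature miR-181a-5p is identical from chromosomes 1 and 2, as is miR-181b-5p, so their counts do not show which hairpin was used.

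The libraries held between 452021 and 7565362 miRNA counts, of library read totals between 22631206 and 24845945 that were recovered from the deposited values. The share of miRNA in the read total was 2.0 to 5.0% in CON, 21.6 to 30.4% in FAC, 5.53 to 19.9% in DFO and 9.20 to 14.6% in VE, so FAC libraries were the deepest in miRNA and did not overlap CON. Therefore, levels are given as the CPM of miRNA counts, i.e. shares of the miRNA counts of a library, scaled by edgeR's TMM factors and called normalized CPM, and values relative to the library read total (RPM) are named as such. The replicates of a group varied widely, with a common biological coefficient of variation of 1.57 over the 547 entries tested. A count of 3, taken as the floor, was worth between 0.351 and 7.90 normalized CPM. In bulk vesicle RNA, a change in vesicle number and a change in miRNA per vesicle cannot be told apart.

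The labelled source was checked against miRNAs known from ovarian granulosa cells, of which 6 of 7 were listed. miR-224-5p, a miRNA known from follicles, was found in all 12 libraries, whereas miR-202-5p, a gonad miRNA, was found in 1 FAC library and was at 0 in CON, DFO and VE. The summed level of the 6 was 359 to 462 normalized CPM in CON, 281 to 724 in FAC, 71.7 to 353 in DFO and 192 to 429 in VE. The liver miRNA miR-122-5p was abundant in all 4 groups, with means between 80763 and 159156 normalized CPM. Of 4 blood leukocyte markers, miR-150-5p had 2859 counts and was found in all 12 libraries, miR-142a-5p had 218 counts, miR-223-3p 17 and miR-142a-3p 1, and the summed level of the 4 was 18.4 to 315 in CON, 5.86 to 98.5 in FAC, 17.2 to 367 in DFO and 1.81 to 228 in VE. Of 4 erythroid markers 2 were listed, and miR-144-3p had 1 count in 1 library. The other, miR-451a, was found in all 12 libraries, with means of 503 normalized CPM in CON, 454 in FAC, 244 in DFO and 1746 in VE. Its counts in VE were 1465, 2136 and 12085, so the VE mean rested largely on replicate 3. FAC and DFO overlapped in miR-451a. The muscle miRNAs miR-1a-3p and miR-206-3p, 2 of 3 markers listed, summed to 292 to 592 in CON, 148 to 202 in FAC, 360 to 869 in DFO and 131 to 164 in VE, so that every DFO library was above every FAC library. The neuron miRNA miR-9-5p, 1 of 2 markers listed, was at 0 in CON and FAC and had 0, 13 and 198 counts in DFO and 40, 22 and 27 in VE. It passed the filter of 10 counts over the 12 libraries only through DFO and VE, so no call is given for it. By edgeR, 1 of the 6 granulosa miRNAs passed the study's threshold between FAC and DFO, higher in FAC, beside 12.2% of all entries. In FAC against VE (9.32%) miR-451a and miR-122-5p passed, lower in FAC. In FAC against CON (9.51%) a muscle miRNA passed, lower in FAC. In VE against CON (10.4%) miR-451a passed, higher in VE, and a muscle miRNA, lower. In DFO against CON (7.68%) a muscle miRNA passed, higher in DFO, and a muscle and a granulosa miRNA, lower. The part of these markers in the results on the miR-181 family was not tested.

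miR-181a-5p was the most abundant member in 11 of the 12 libraries by count. Its counts were 664, 92 and 424 in CON, 4529, 8311 and 5145 in FAC, 359, 745 and 403 in DFO and 1888, 1353 and 2883 in VE. On the scale of normalized CPM these were 544, 242 and 667 in CON, 530, 1110 and 1045 in FAC, 124, 134 and 302 in DFO and 853, 493 and 906 in VE. Every FAC library was above every DFO library, whereas FAC overlapped CON and VE. The order of the means was FAC (895 ± 317), VE (751 ± 225), CON (484 ± 218) and DFO (187 ± 100; all SD, n = 3), and each neighbouring pair in this order overlapped.

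miR-181b-5p, which shares both miR-181a clusters, showed a different CON group. Its counts were 443, 17 and 15 in CON, 2705, 4490 and 1842 in FAC, 405, 340 and 286 in DFO and 1091, 883 and 1635 in VE. The normalized CPM were 363, 44.8 and 23.6 in CON, 317, 600 and 374 in FAC, 140, 61.0 and 215 in DFO and 493, 322 and 514 in VE. CON replicate 1 was at the level of FAC and VE, and CON replicates 2 and 3 were below every other library of the series. Again, FAC and DFO did not overlap. The means were 443 ± 105 in VE, 430 ± 149 in FAC, 144 ± 190 in CON and 138 ± 76.9 in DFO (SD, n = 3), and VE with FAC and CON with DFO differed by less than their spread.

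miR-181d-5p was lower than miR-181a-5p in all 12 libraries and was found in each of them. Its counts were 183, 12 and 4 in CON, 1217, 1990 and 448 in FAC, 14, 287 and 167 in DFO and 221, 167 and 626 in VE. The normalized CPM were 150, 31.6 and 6.29 in CON, 143, 266 and 91.0 in FAC, 4.82, 51.5 and 125 in DFO and 99.8, 60.9 and 197 in VE. The groups overlapped in every comparison, and the lowest values were those of CON replicate 3 and DFO replicate 1. The means were 166 ± 89.8 in FAC, 119 ± 70.0 in VE, 62.6 ± 76.7 in CON and 60.5 ± 60.8 in DFO (SD, n = 3).

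miR-181c-5p, which shares the chromosome 8 cluster with miR-181d-5p, was almost absent from the counts. It had 7 counts in FAC replicate 1, 61 in FAC replicate 2 and 1 in CON replicate 3, and it was at 0 in the other 9 libraries, including FAC replicate 3 and all of DFO and VE. The total of 69 counts stood against 5336 for miR-181d-5p. The entry passed the filter of 10 counts over the 12 libraries only through FAC, so no fold change is given for it. In VE a count of 0 allows up to 1.36 normalized CPM, and the values of FAC replicates 1 and 2 were 0.820 and 8.15.

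**Figure D1:**
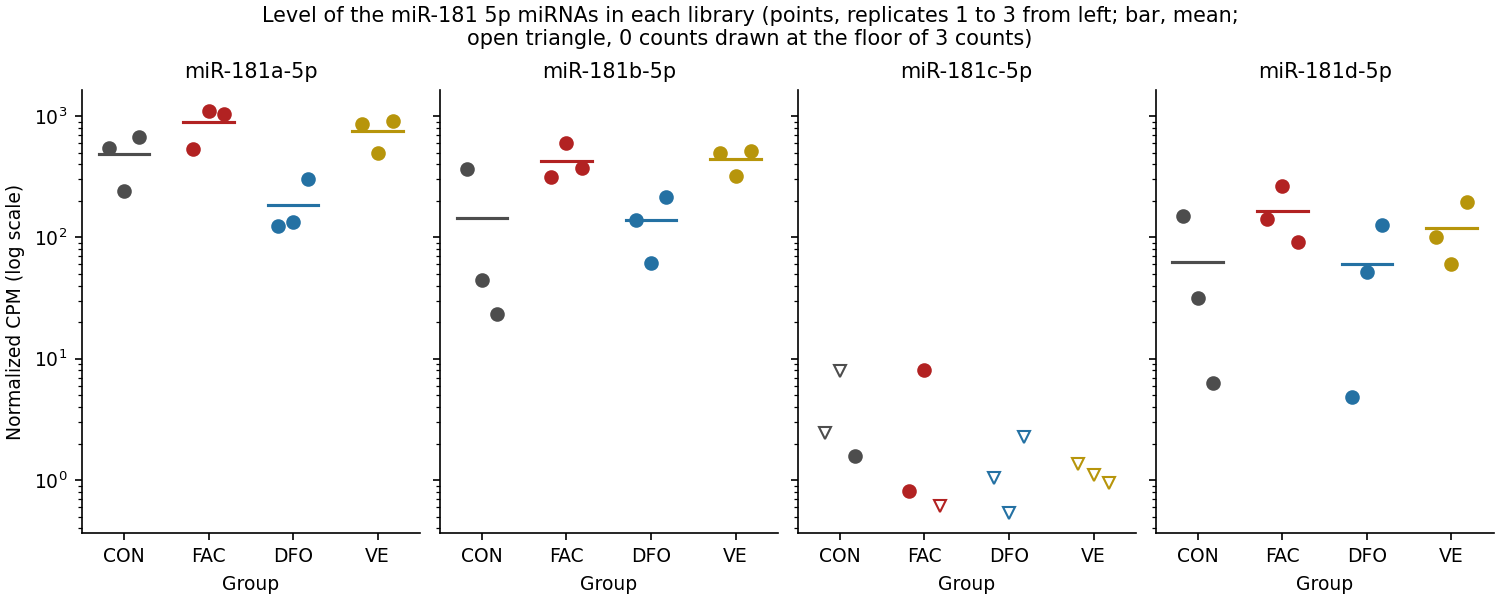
Normalized CPM (log scale) of each miR-181 guide in the 12 libraries, by group. Filled points are libraries, bars are group means, and open triangles are libraries with 0 counts drawn at the level of 3 counts. The FAC points lie above the DFO points for miR-181a-5p and miR-181b-5p, and CON spreads from 23.6 to 363 for miR-181b-5p.

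The low counts of these libraries were uneven. In each library the distribution of counts over entries had its lowest peak at 20.3 to 198 counts. Below this point of their library lay miR-181a-5p in CON replicate 2, miR-181b-5p in CON replicates 2 and 3, and miR-181d-5p in CON replicates 2 and 3 and in DFO replicate 1. The part of this in the results was not tested.

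To ask which members differ when iron is present with and without its chelator, FAC was compared with DFO. miR-181a-5p was higher in FAC by 2.26 on the log2 scale (SE 0.88, 95% interval 0.54 to 3.99), and by edgeR's quasi-likelihood test it passed the threshold that the study set, which asked for a 1.5-fold change or more and an unadjusted p under 0.05. The unadjusted p-value from edgeR was 0.0101. It did not pass after Benjamini-Hochberg adjustment over the 547 entries (edgeR, adjusted p = 0.189). miR-181b-5p was 1.64 apart (SE 1.01, 95% interval -0.34 to 3.62) and miR-181d-5p 1.46 (SE 1.36, 95% interval -1.21 to 4.13), and neither passed either threshold (edgeR, adjusted p = 0.458 and 0.518). Thus 1 of the 4 members passed the study's threshold, beside 12.2% of all entries in both directions and 4.75% in this direction, and 0 of 4 passed the adjusted threshold, beside 0.914% of all entries. The groups did not overlap for 2 of the 4 members, miR-181a-5p and miR-181b-5p, beside 16.6% of all entries, of which the share higher in FAC was 10.1%. For each of these 2 the exact two-sided permutation test gave p = 0.1, the smallest that 3 against 3 libraries allow. The median log2 fold change over all entries was 0.66 in this comparison, so the difference of miR-181a-5p was larger than that of the typical entry.

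The call of miR-181a-5p between FAC and DFO was present under all 11 other settings that were run and when each of the 6 libraries was left out. The log2 fold change was between 2.09 and 3.60 over the settings and between 2.05 and 2.80 without 1 library. Leaving out 1 library gave unadjusted p-values of 0.00623 to 0.0415 and adjusted p-values of 0.167 to 0.492 by edgeR. Over the other settings the adjusted p was between 0.00324, which was the value by DESeq2, and 0.196.

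To ask which members differ under iron overload, FAC was compared with CON. No member passed the study's threshold by edgeR, beside 9.51% of all entries, or the adjusted threshold, beside 0.183%. miR-181a-5p was 0.89 higher in FAC on the log2 scale (95% interval -0.77 to 2.54), miR-181b-5p 1.58 (95% interval -0.40 to 3.56) and miR-181d-5p 1.40 (95% interval -1.27 to 4.07), with an adjusted p of 0.607 for each by edgeR. The unadjusted p-values from edgeR were 0.295, 0.119 and 0.303. The median over all entries was 1.38, so miR-181a-5p lay under the median and the other 2 near it. Without CON replicate 1, miR-181b-5p was 3.66 higher in FAC and passed the study's threshold (edgeR, adjusted p = 0.0918), and miR-181d-5p was 3.15 higher and did not pass it (edgeR, adjusted p = 0.483). Hence the size of the difference turned on 1 library for both, and the call on it for miR-181b-5p. FAC and CON overlapped for all 4 members, beside 13.3% of entries for which they did not.

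On the RPM scale, FAC and CON looked different. The RPM of miR-181a-5p was 16.2 ± 11.7 in CON and 246 ± 86.9 in FAC, that of miR-181b-5p was 6.55 ± 10.2 and 123 ± 57.0, and that of miR-181d-5p was 2.75 ± 4.16 and 49.9 ± 32.1 (SD, n = 3). No FAC library overlapped a CON library for these 3 members, beside 31.4% of all entries that were higher without overlap in FAC on this scale. When the read total of each library was the scale in edgeR, the log2 differences were 3.92 for miR-181a-5p, 4.24 for miR-181b-5p and 4.18 for miR-181d-5p, with adjusted p-values of 0.00450, 0.00577 and 0.0402 (edgeR). The median over all entries was then 4.35, which is above all 3, and 159 of the 547 entries (29.1%) passed the study's threshold, all of them higher in FAC, where 13 of 52 were higher with TMM factors. By limma on log2(RPM + 1) the 3 members passed it as well, at 4.11, 4.94 and 4.12, beside 35.6% of all entries and a median of 0.96 over all entries. On the read totals, the same 3 members also passed in FAC against DFO, beside 13.7% of all entries. The miRNA share of the libraries moved with these differences, and its part in them was not tested.

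To ask which members differ when the antioxidant is added to iron, FAC was compared with VE. No member passed the study's threshold by edgeR, beside 9.32% of all entries, or the adjusted threshold, beside 0.366%. The log2 difference was 0.25 for miR-181a-5p (95% interval -1.39 to 1.90), -0.04 for miR-181b-5p (95% interval -1.97 to 1.89) and 0.48 for miR-181d-5p (95% interval -2.14 to 3.10), and the adjusted p-values from edgeR were 0.959, 1 and 0.934. These intervals hold changes of several fold in either direction, so the test does not show that the levels are alike. The 2 groups overlapped for all 4 members, beside 14.6% of entries for which they did not.

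The groups with iron and a protective agent were then compared with CON. In DFO, miR-181a-5p was -1.38 from CON on the log2 scale (95% interval -3.05 to 0.30; edgeR, adjusted p = 0.658), whereas miR-181b-5p and miR-181d-5p were each -0.06 from it. In VE, the differences from CON were 0.63 for miR-181a-5p, 1.62 for miR-181b-5p and 0.92 for miR-181d-5p, with adjusted p-values of 0.847, 0.533 and 0.892 by edgeR. With TMM factors, no member passed the study's threshold in either comparison by edgeR, beside 7.68% of all entries in DFO against CON and 10.4% in VE against CON, or the adjusted threshold, beside 0.548% and 2.01%. Without CON replicate 1, miR-181b-5p was 3.70 higher in VE and passed it (edgeR, adjusted p = 0.112). In DFO against CON, miR-181a-5p passed the study's threshold by DESeq2, at -1.48 (adjusted p = 0.147), and with the filterByExpr filter, at -1.38 (edgeR, adjusted p = 0.469), whereas its direction turned to 0.33 with library read totals and to 0.57 and 0.63 by limma on RPM with pseudocounts of 1 and 0.1. By the same 2 limma settings miR-181b-5p was 1.97 and 2.65 higher in DFO and passed (limma, adjusted p = 0.272 and 0.222), beside 15.4% and 16.1% of all entries. In VE against CON, miR-181a-5p passed at 2.38, 2.56 and 2.68 and miR-181b-5p at 2.92, 3.70 and 4.43 on library read totals and by the 2 limma settings, and miR-181d-5p passed at 2.38 and 3.46 by limma, beside 21.6%, 17.7% and 18.5% of all entries. Of these, miR-181b-5p also passed the adjusted threshold by limma (adjusted p = 0.0283 and 0.0205). The median over all entries in VE against CON was 0.99, 0.18 and 0.52 on these 3 settings. In a test of any difference among the 4 groups, the adjusted p-values from edgeR were 0.299 for miR-181a-5p, 0.410 for miR-181b-5p and 0.734 for miR-181d-5p, beside 4.57% of all entries called.

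**Figure D2:**
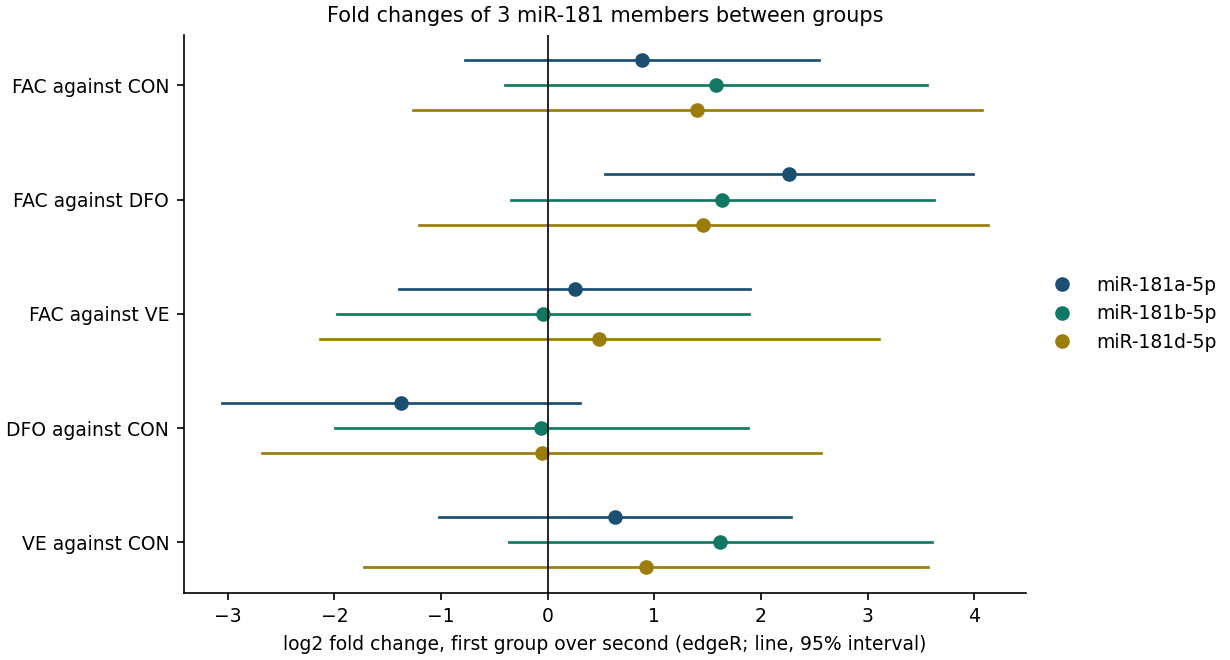
Log2 fold changes (x axis, first group over second) of miR-181a-5p, miR-181b-5p and miR-181d-5p in the 5 comparisons, by edgeR with TMM factors. Points are estimates and lines are 95% intervals, and only the interval of miR-181a-5p in FAC against DFO, 0.54 to 3.99, does not hold 0.

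The summed level of the 4 guides, which share 1 seed, was 1495 ± 497 normalized CPM in FAC, 1313 ± 388 in VE, 691 ± 369 in CON and 386 ± 223 in DFO (SD, n = 3). By library it was 1057, 319 and 698 in CON, 991, 1983 and 1510 in FAC, 268, 246 and 642 in DFO and 1445, 876 and 1617 in VE. Every FAC and VE library was above every DFO library, while CON overlapped FAC, VE and DFO. On the RPM scale the order changed, with means of 420 ± 171 in FAC, 148 ± 58.2 in VE, 40.8 ± 13.1 in DFO and 25.5 ± 24.8 in CON. There, FAC, VE and DFO were set apart from each other without overlap, and CON overlapped DFO alone. Among single entries, FAC lay above DFO without overlap for 10.1% on normalized CPM and 16.1% on RPM. On RPM it lay above VE for 23% and above CON for 31.4%, and VE lay above CON for 21.6%. This share was not computed for VE against DFO. No test was run on the sum.

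**Figure D3:**
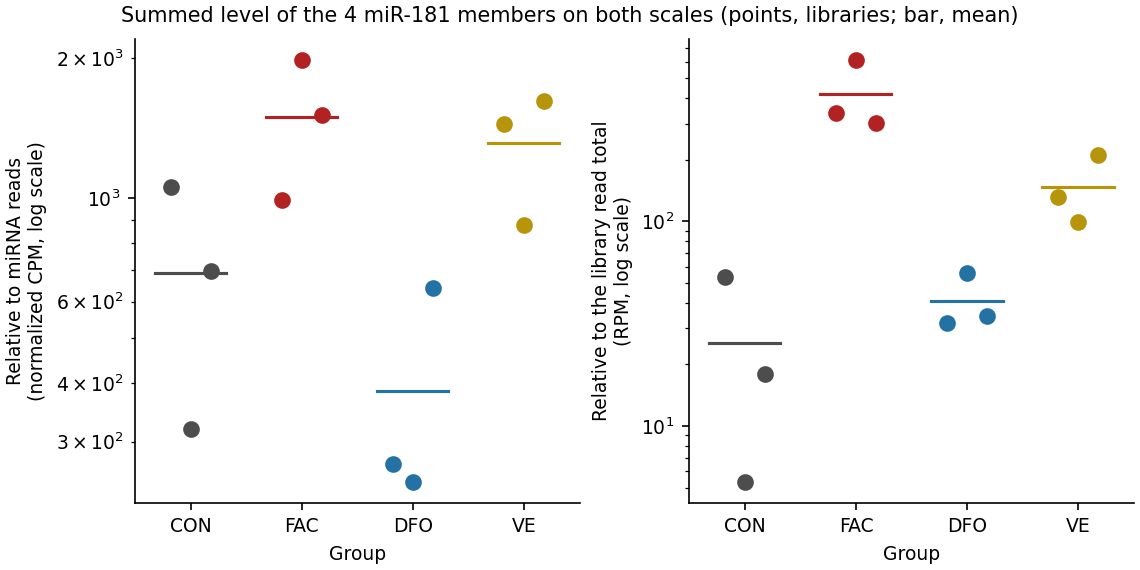
Summed level of the 4 guides in each library on 2 scales, normalized CPM (left, log scale) and RPM of the library read total (right, log scale). Points are libraries and bars are means. DFO is the lowest group on the left (mean 386) and CON the lowest on the right (mean 25.5).

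Within the family, miR-181a-5p held between 46.1 and 95.5% of the counts of a library, miR-181b-5p between 3.38 and 52.1%, miR-181d-5p between 0.901 and 20.9%, and miR-181c-5p at most 0.411%. In VE the share of miR-181a-5p was 59.0, 56.3 and 56.0%, while that of miR-181d-5p was 6.91% (95% Wilson interval 6.08 to 7.84), 6.95% (6.0 to 8.04) and 12.2% (11.3 to 13.1), so that VE replicate 3 stood apart in it. In CON the share of miR-181a-5p was 51.5% (95% Wilson interval 48.7 to 54.2) in replicate 1, 76.0% (67.7 to 82.8) in replicate 2 and 95.5% (93.1 to 97.1) in replicate 3. DFO replicate 1 was the single library in which miR-181b-5p, at 52.1%, exceeded miR-181a-5p, at 46.1%, and in it miR-181d-5p held 1.80% whereas it held 20.9 and 19.5% in the other 2 DFO libraries. Reads amplified by PCR are not independent molecules, so intervals and floors cover counting error only.

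**Figure D4:**
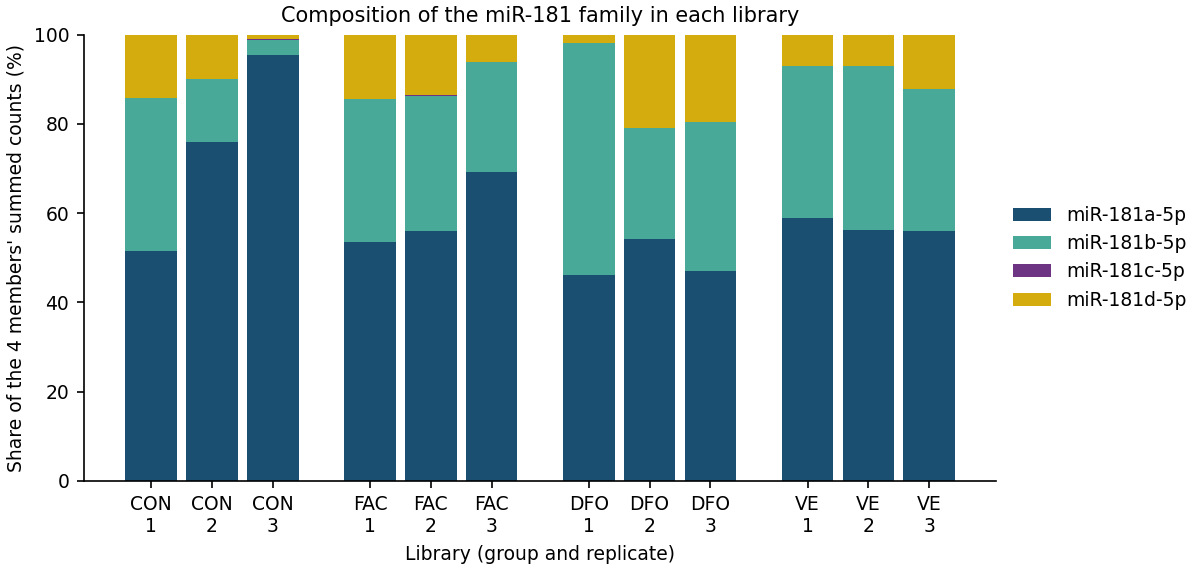
Share of each guide in the summed counts of the 4 members (y axis, percent), 1 bar for each of the 12 libraries. miR-181a-5p holds 46.1 to 95.5%, miR-181d-5p is larger in VE replicate 3 (12.2%) than in the other 2 VE bars (6.91 and 6.95%), and miR-181c-5p, at most 0.411%, is hardly visible.

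Next, the 3p arms of the same hairpins were examined. The files listed 3 of the 6 that were looked for. The sequences of these 3 are given with bases 2 to 8 in capitals, since miR-181a-2-3p differs there from the other 2, and the Mir181a-2 hairpin follows with both mature arms in capitals.

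miR-181a-1-3p: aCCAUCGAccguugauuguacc

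miR-181a-2-3p: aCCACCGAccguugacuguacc

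miR-181c-3p: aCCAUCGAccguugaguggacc

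Mir181a-2 hairpin: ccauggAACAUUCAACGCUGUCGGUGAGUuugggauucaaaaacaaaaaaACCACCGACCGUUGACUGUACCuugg

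miR-181a-2-3p, the usual passenger strand of the chromosome 2 hairpin, was counted in all 12 libraries. Its counts were 261, 140 and 11 in CON, 491, 215 and 515 in FAC, 503, 2188 and 469 in DFO and 503, 267 and 608 in VE. The normalized CPM were 214, 369 and 17.3 in CON, 57.5, 28.7 and 105 in FAC, 173, 392 and 352 in DFO and 227, 97.3 and 191 in VE. Every DFO library was above every FAC library, which is the opposite order to that of miR-181a-5p. Of all entries, 6.58% were lower in FAC than in DFO without overlap. The log2 difference of FAC from DFO was -2.27 (SE 1.18, 95% interval -4.58 to 0.05) and did not pass the study's threshold by edgeR (adjusted p = 0.420). It did pass under 5 of 11 other settings, with an adjusted p of 0.0269 by DESeq2, and over all 11 the adjusted p ran from 0.0269 to 0.556. When 1 library was left out it passed without FAC replicate 3 or without DFO replicate 1. In FAC against CON the difference was -1.65 (edgeR, adjusted p = 0.607), and without CON replicate 3 it was -2.14 and passed the study's threshold (edgeR, adjusted p = 0.625). It passed there by DESeq2 as well, at -1.80 (adjusted p = 0.153), and with RPM the direction turned.

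The other 3p arms were sparse. miR-181a-1-3p, from chromosome 1, had 75, 0 and 1 counts in CON, 104, 33 and 1 in FAC, 4, 91 and 2 in DFO and 2, 31 and 1 in VE. miR-181c-3p had 187, 40 and 0 counts in FAC and 1, 2 and 0 in DFO, and it was at 0 in all CON and VE libraries. Hence both arms of Mir181c were detected mainly in FAC replicates 1 and 2. In the main edgeR fit, with TMM factors and all libraries, no 3p arm passed the study's threshold in any of the 5 comparisons. In DFO against CON, miR-181a-2-3p passed under 3 of 11 other settings. It was 2.88 higher in DFO with library read totals (edgeR, adjusted p = 0.276). By limma on log2(RPM + 1) and log2(RPM + 0.1) it was 2.77 and 3.29 higher (limma, adjusted p = 0.130 and 0.132). In VE against CON it passed by limma on log2(RPM + 1) alone, at 1.93 (limma, adjusted p = 0.281).

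Because both arms are read in the same library, the number of miR-181a-5p reads per miR-181a-2-3p read does not depend on how libraries are scaled. It was 2.54, 0.657 and 38.5 in CON, 9.22, 38.7 and 9.99 in FAC, 0.714, 0.340 and 0.859 in DFO and 3.75, 5.07 and 4.74 in VE. In DFO the 3p arm was therefore read more often than the 5p arm in 3 of 3 libraries, and in FAC and VE the 5p arm was read more often in 3 of 3. The mean log2 ratio was -0.75 ± 0.71 in DFO, 2.16 ± 0.23 in VE, 3.93 ± 1.16 in FAC and 2.0 ± 2.99 in CON (SD, n = 3), and CON spanned the range from DFO to FAC. As miR-181a-5p also comes from Mir181a-1, the ratio is not that of a single hairpin.

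The same ratio was taken for entries that share a name up to 5p and 3p, where both were counted in each library of FAC and DFO. Other 3p arms named with a hairpin number, such as miR-181a-1-3p, were left out, so not every hairpin is covered. This comparison was chosen after the miR-181a values had been seen. FAC and DFO did not overlap in 4 of 19 such ratios (21.1%), and in 1 of 19 (5.26%), that of miR-181a, FAC was the higher. The difference of 4.69 on the log2 scale ranked 2 of 19 by size, where the median was -0.55. In FAC against CON the difference for miR-181a was 1.93, rank 10 of 20, in FAC against VE it was 1.77, rank 7 of 22, in DFO against CON it was -2.76, rank 3 of 15, and in VE against CON it was 0.16, rank 14 of 16. CON and DFO overlapped in this ratio. Over all counts of miR-181 arms, the 3p arms held 39.5, 62.4 and 35.5% in DFO, against 8.46, 1.90 and 6.49% in FAC, 13.6, 11.0 and 10.6% in VE and 20.7, 53.6 and 2.63% in CON.

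**Figure D5:**
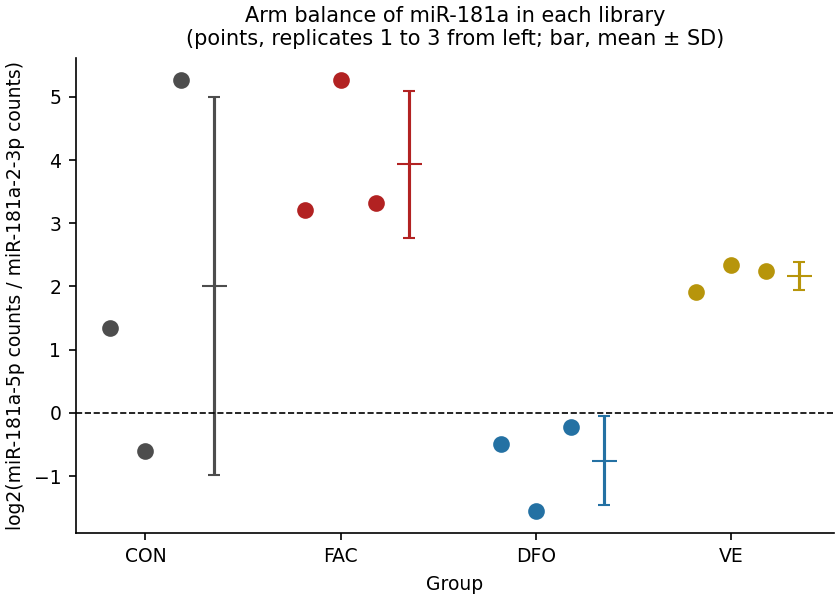
Log2 ratio of miR-181a-5p counts to miR-181a-2-3p counts (y axis) in each library, by group, with the mean ± SD beside the points. The dashed line marks equal counts, with the 3 DFO libraries below it and all FAC and VE libraries above it.

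The members varied together to different degrees over the 12 libraries, which differ in group, depth and miRNA share. On log2 CPM, Pearson's r was 0.76 between miR-181b-5p and miR-181d-5p (Spearman's rho 0.80), 0.56 between miR-181a-5p and miR-181b-5p (rho 0.75) and 0.55 between miR-181a-5p and miR-181d-5p (rho 0.64). The closest pair was thus b with d, which lie in different clusters but are nearly the same in sequence. The other pair of like sequence, a with c, had r 0.42, where miR-181c-5p was almost absent from the counts. The part of sequence likeness in these values was not tested. Between miR-181a-5p and miR-181a-2-3p r was -0.54 (rho -0.50).

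Among 199 entries found in at least 10 libraries, those most like miR-181a-5p were miR-22-3p (r 0.81, rho 0.56), miR-412-5p (0.75, 0.56), miR-221-3p (0.74, 0.54), miR-652-3p (0.74, 0.69) and let-7c-1-3p (0.70, 0.69), where the median r of the entries searched was 0.09. Without the 2 libraries farthest from the median of miR-181a-5p, r was 0.48, 0.36, 0.37, 0.62 and 0.68 for these 5, so the first 3 rested largely on those libraries. Most like miR-181b-5p were miR-361-5p (r 0.92, rho 0.92), miR-339-5p (0.86, 0.69) and miR-140-3p (0.83, 0.69), with r of 0.82, 0.54 and 0.57 without the 2 farthest libraries. These entries were picked for the likeness, and the values are a description over 12 libraries.

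Of 10 other miRNAs known from thymocytes and lymphocytes, all were listed and 9 had enough counts for the test. In FAC against CON 1 of the 9 passed the study's threshold by edgeR, beside 9.51% of all entries, and it was mmu-miR-146a-5p, an inhibitor of innate immune signalling, with a log2 difference of 3.74 (edgeR, adjusted p = 0.161). The counts of mmu-miR-146a-5p were 10, 8 and 18 in CON, 2177, 3047 and 505 in FAC, 445, 788 and 151 in DFO and 196, 572 and 399 in VE, and CON lay below every other library. It passed in DFO against CON, at 2.83, and in VE against CON, at 2.88, too. In FAC against DFO 0 of the 9 passed, beside 12.2%. In FAC against VE 1 passed, beside 9.32%, and it was mmu-miR-155-5p, an immune activation miRNA with 311, 90 and 114 counts in FAC and 0 in all of VE. In DFO against CON and in VE against CON 2 passed, beside 7.68% and 10.4%, and they were mmu-miR-146a-5p and mmu-miR-20a-5p, a member of the miR-17 cluster. The counts of mmu-miR-20a-5p were 0 in all of CON, 0, 49 and 0 in FAC, 110, 1 and 66 in DFO and 125, 0 and 0 in VE. Its call in VE against CON thus rested on 1 library. None of the 9 fell past the study's threshold and none passed after adjustment in any comparison. The median log2 difference of the 9 in FAC against DFO was 0.89, beside 0.66 for all entries.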

How the data were processed

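Small RNA of exosomes (exoEasy Maxi kit, Illumina HiSeq, reads of 15 to 41 bp) was sequenced in 12 libraries. The authors deposited, per library, whole-number read counts per mature miRNA and the same counts as RPM, i.e. relative to a library read total, which was recovered from the ratio of both columns. The labels name the build mm9; the aligner, the miRNA database and the handling of multiply matching reads are not given in the sources used here. Sequences and positions are from RefSeq and host genes from GENCODE, both for GRCm38.p6.

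Counts were tested with edgeR 4.0.16 (quasi-likelihood test, TMM factors, 1 fit of 4 groups, 547 of 637 entries, those that reached 10 counts summed over the 12 libraries) in R 4.3.3. The study's threshold was a fold change of at least 1.5 and p under 0.05, taken as unadjusted. Benjamini-Hochberg adjustment ran over all tested entries. The 95% intervals are the estimate plus or minus the t quantile times the SE. The degrees of freedom were 4376 for each member, because the spread was pooled over entries. DESeq2 1.42.0, limma 3.58.1 on log2(RPM + 1) and log2(RPM + 0.1), other scalings and filters, 2 groups only, the replicate block, sums of near-identical members and leaving out each library were alternatives. Log2 CPM for likeness used a prior count of 2. Permutation tests, with SciPy 1.17.1 in Python 3.11.15, were exact and two-sided. The densest point of a library was the highest point of a kernel curve over entries with 10 to 500 counts (bandwidth 0.18, log2 scale).

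The named entries were the 4 members, the listed 3p arms, the 5 entries most like miR-181a-5p and the 3 most like miR-181b-5p, and list members past the study's threshold. Members and lists were chosen with earlier results of these data known. In simulated FAC against CON counts, edgeR recovered after adjustment 87.8% of 189 altered entries (log2 change 3) when the replicate spread was small. It recovered 0% of 187 when every entry was given the common spread of the real libraries. In the real fit the SE differed between members, at 0.85 for miR-181a-5p and 1.36 for miR-181d-5p in FAC against CON. The 0% may therefore not hold for abundant entries. The 66 pairs of libraries all differed by more than sampling noise (smallest chi-square per degree of freedom 156).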

Additional observations from a re-analysis of the deposited data

How the results depend on the processing

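Of 250 recomputed differences of miR-181a-5p, miR-181b-5p and miR-181d-5p, 187 kept their direction and their side of the study's threshold, 33 turned in direction and 29 newly passed the threshold, 2 of them with the direction turned, and 0 with a p lost it. DESeq2 gave no p for miR-181b-5p in any of the 5 comparisons, 3 of which kept their direction. The cause of these changes was not tested.

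With library read totals, limma with a pseudocount of 1 RPM and limma with 0.1 RPM, in this order, newly passing log2 differences were 3.92, 4.11 and 4.24 for miR-181a-5p, 4.24, 4.94 and 5.69 for miR-181b-5p and 4.18, 4.12 and 5.28 for miR-181d-5p in FAC against CON, and 3.14, 2.97 and 3.05 for miR-181b-5p and 2.98, 3.01 and 3.47 for miR-181d-5p in FAC against DFO. The summed level in RPM was 4.53, 3.34 and 1.51 for FAC against CON, DFO and VE, where it was 1.22, 2.04 and 0.18 in normalized CPM. Leaving out 1 library gave 1.24 to 3.66 for miR-181b-5p and 1.01 to 3.15 for miR-181d-5p in FAC against CON, and 1.08 to 2.56 for miR-181d-5p in FAC against DFO. The members that newly passed in VE against CON and DFO against CON are given with their values beside those comparisons.

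Directions turned mainly where the difference was near 0. In FAC against VE, miR-181b-5p was 0.0596 with RLE factors and by DESeq2, 0.31 with total counts, 1.31 with library read totals, 0.11 with no filter, 0.14 with the 2 groups only, 0.13 with the replicate block, 1.24 and 1.26 by limma, 0.0900 with members summed and -0.30 to 0.27 without 1 library. In DFO against CON, miR-181a-5p was 0.33, 0.57 and 0.63 on the 3 read-total settings above, miR-181b-5p was 1.10, 1.97 and 2.65 on these, 0.12 with RLE factors, 0.11 by DESeq2, 0.0101 with no filter, 0.31 with the replicate block and -0.53 to 2.02 without 1 library, and miR-181d-5p was 1.20, 1.11 and 1.81 on these, 0.0046 with total counts and -1.16 to 1.69 without 1 library. The summed level in RPM was 1.20. miR-181a-2-3p turned to 1.51, 1.74 and 2.22 in FAC against CON and to 1.71, 1.93 and 2.43 in VE against CON on the 3 read-total settings, and in the latter it was -0.76 to 0.59 without 1 library.

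Entries past the study's threshold, 52, 67, 51, 42 and 57 in FAC against CON, DFO and VE, DFO against CON and VE against CON, became 159, 75, 81, 93 and 118 with library read totals, 195, 123, 103, 84 and 97 by limma with 1 RPM, 192, 115, 91, 88 and 101 with 0.1 RPM, and 39, 54, 32, 23 and 36 with the replicate block. They were 25 in DFO against CON with 2 groups only and 36 in VE against CON with filterByExpr. Without FAC replicate 1 they were 33, 41 and 25 in the comparisons of FAC, and without FAC replicate 2 they were 34, 47 and 29. FAC against VE had 32 and 33 without VE replicates 1 and 2, VE against CON 32 and 35, and DFO against CON 27 without DFO replicate 1. Libraries of the same replicate number showed no sign of pairing. Over 18 same-number pairs the mean r of deviations was 0.0042, with 0 above 0.1, and 4 of 12 libraries were closest to their own number. The replicates of a group varied widely, so this check cannot exclude pairing. With the replicate block, miR-181a-5p in FAC against DFO was 2.39 (edgeR, adjusted p = 0.170), and no call of a member changed. Depth limits miR-181c-5p, since 0 counts allow up to 7.90 normalized CPM in CON replicate 2.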
